A study of Sus scrofa with 3 samples.

Results

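The genes described here are 8 enzymes and regulators of cholesterol synthesis: HSD17B7, SQLE, HMGCS1, FDFT1, FDPS, CYP51A1, INSIG1 and SREBF2. They were chosen by name, with earlier results of these data known. Shares of all genes or probes set beside member counts below are therefore descriptions, not an unbiased comparison. The probes of the 8 genes were those whose array name, accession or written description names one of them. By this rule 16 probes of 7 members were found among 43603 probes, with 6509 named genes in all. No probe was matched to FDFT1, which makes squalene from farnesyl diphosphate. The single probe matched to HMGCS1, the enzyme that makes HMG-CoA, was not well above background on any array, with unscaled intensities of 2.74 (TL2937+ETEC), 5.55 (TL2766+ETEC) and 2.82 (ETEC). Neither gene therefore has a fold change here. The other 6 members were well above background on every array, through 15 probes.

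RNA came from PIE cells, a non-transformed porcine line derived from the intestinal epithelium of an unsuckled newborn pig and grown for 3 days in medium with 10% fetal calf serum. In the group TL2937+ETEC the cells were then kept for 48 h with Lactobacillus jensenii TL2937, washed, and exposed for 12 h to ETEC PAMPs, which are molecular patterns of enterotoxigenic Escherichia coli. The group TL2766+ETEC was treated likewise with Lactobacillus plantarum TL2766, and the group ETEC had control medium before the same PAMPs. Each group had 1 culture and 1 array, all 3 groups were exposed to the PAMPs, and unchallenged cells were not analysed here. With a single culture in each group, variation between cultures is not measured and no test was possible.

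Cells build cholesterol from acetyl-CoA through mevalonate, farnesyl diphosphate, squalene and lanosterol. When sterols in the endoplasmic reticulum are low, SREBP-2, the product of SREBF2, is released from INSIG proteins, cut in the Golgi and enters the nucleus, where it switches on most genes of the pathway. Intestinal epithelium both makes cholesterol and takes it up.

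The array's oligonucleotide probes are 60 bases long. As examples of what hybridised, a probe is shown for each of the 4 member enzymes with higher signals on both lactobacillus arrays. A probe is also shown for INSIG1, whose brightest probe was not higher. Those of HSD17B7, FDPS and INSIG1 are the probes that stand for the gene in counts and ranks, whereas SQLE and CYP51A1 are represented there by their probes at bases 2475 and 2230. Each is given 5′ to 3′ as in the scanner files, with no part set apart in capitals because the whole probe hybridises.
HSD17B7: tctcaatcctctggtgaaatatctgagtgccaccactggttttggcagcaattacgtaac
SQLE: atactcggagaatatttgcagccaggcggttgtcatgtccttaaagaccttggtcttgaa
CYP51A1: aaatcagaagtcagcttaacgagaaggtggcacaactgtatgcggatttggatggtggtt
FDPS: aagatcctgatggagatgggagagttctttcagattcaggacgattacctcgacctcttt
INSIG1: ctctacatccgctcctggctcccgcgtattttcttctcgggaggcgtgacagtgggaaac
These probes start at bases 833 (HSD17B7), 949 (SQLE), 667 (CYP51A1), 891 (FDPS) and 128 (INSIG1) of the transcripts for which the array was designed. The probe of INSIG1 has 58.3% G and C and the other 4 have 45%. Genome positions are not used here, since the scanner files name no build. Probes are named below by gene and by the base at which they start.

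The 3 arrays were alike in overall signal. The 75th percentile of processed intensity was 505 on the TL2937+ETEC array, 483 on the TL2766+ETEC array and 461 on the ETEC array, and between 60.9% and 62.5% of gene spots were well above background. Intensities below are scaled to a common 75th percentile of 483. The markers of the labelled cell type were mostly at or near background. Of 7 epithelial markers, 6 had a probe, and 2 of these (KRT8 and CLDN1) were well above background on all 3 arrays. KRT18 and EPCAM were not well above background on any array. KRT8 lay at 18.0, 23.9 and 19.8 on the TL2937+ETEC, TL2766+ETEC and ETEC arrays, where the lowest detected signals were 11.6, 11.8 and 12.9. Among endothelial markers, 3 of 4 were well above background on all arrays, and PECAM1 lay at 84073, 85385 and 86641. Of fibroblast markers 3 of 5, and of leukocyte markers 1 of 5 (CD14), were well above background throughout. Most of the usual epithelial markers were thus near or below detection in cells labelled intestinal epithelial, with CLDN1 the exception at 2197, 2193 and 3051. On the log2 scale CLDN1 differed by -0.47 for TL2937+ETEC against ETEC and -0.48 for TL2766+ETEC against ETEC, and KRT8 by -0.14 and 0.27. CDH1, measured in the first comparison alone, differed by 0.55, and VIL1, measured in the second alone, by -0.60. Of the endothelial markers, KDR differed by 0.59 and 0.50, PECAM1 by -0.043 and -0.021, and CDH5 by -0.092 and -0.11, while VWF, measured in the first comparison alone, differed by -0.55. Of the fibroblast markers, COL1A2 differed by -0.38 and -0.55, DCN by -0.086 and -0.050, and THY1 by -0.18 and -0.094. Of the leukocyte markers, CD14 differed by 0.22 and 0.25, and CD3E, measured in the first comparison alone, by 0.13. The epithelial and endothelial markers thus did not share 1 direction. Those of fibroblasts were all below 0 by their brightest probes, and the measured leukocyte markers were above 0. The part of these markers in the results below was not tested.

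The comparisons of TL2937+ETEC and of TL2766+ETEC with ETEC asked whether pretreatment with either strain went with a different level of these genes after the PAMPs. Among the members, the measured enzymes FDPS, SQLE, CYP51A1 and HSD17B7 had higher signals on both lactobacillus arrays. The regulators SREBF2 and INSIG1 did not show a common difference. Over the 6 measured members the median log2 difference was 0.18 for TL2937+ETEC against ETEC (1.14-fold higher), beside -0.038 over all 4963 genes measured on both arrays. It was 0.15 for TL2766+ETEC against ETEC (1.11-fold higher), beside 0.0028 over 4938 genes. Both comparisons use the same ETEC array, so its value enters both. In bulk RNA, fewer cells of a type and less RNA per cell cannot be told apart.

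A fold of 1.2 or more was taken as a description of size, not as a test. HSD17B7 and SQLE passed it upward for TL2937+ETEC against ETEC, 2 of 6 members, where 7.39% of all genes did. The same 2 passed it for TL2766+ETEC against ETEC, where 8.12% of all genes did. Among 1573 genes whose mean signal lay within the range of the members, these shares were 3.43% and 4.32%. None of the 6 was 1.5-fold higher, where 1.09% (TL2937+ETEC) and 1.42% (TL2766+ETEC) of all genes were, or 2-fold higher, where 0.242% and 0.324% were. None was 1.2-fold lower, where 12.3% and 8.79% of all genes were. The fold of 1.2 corresponds to 0.26 on the log2 scale; on the TL2937+ETEC array the nearest member above it was SQLE (0.32) and the nearest below it CYP51A1 (0.23).

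HSD17B7 encodes an enzyme that reduces a keto group on sterol intermediates after lanosterol, and that can also convert estrone to estradiol. Its 1 probe gave 975 ± 97.6 on the TL2937+ETEC array, 998 ± 99.8 on the TL2766+ETEC array and 684 ± 68.4 on the ETEC array (scaled intensity, with the scanner software's error for a single spot). The ETEC array was the low one, and its error range did not meet those of the lactobacillus arrays. HSD17B7 was 1.43-fold higher on the TL2937+ETEC array, a log2 difference of 0.51 ± 0.20, and 1.46-fold higher on the TL2766+ETEC array, a log2 difference of 0.55 ± 0.20. These errors combine the software errors of both spots and cover no variation between cultures. The software error rests largely on a 10% setting of its error model, not on a spread measured between spots. HSD17B7 ranked 82 from the highest of 4963 genes and 85 of 4938. With 1 probe, HSD17B7 could not be checked against a second sequence, but the spots around it did not share its difference: the median of 128 neighbouring measured spots was 0.052 and 0.035.

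SQLE, squalene epoxidase, adds the oxygen that prepares squalene for ring closure. Its brightest probe, at base 2475, gave 4480 (TL2937+ETEC), 4583 (TL2766+ETEC) and 3599 (ETEC). The probe at base 2478, which overlaps it almost fully, gave 4439, 4463 and 3490 on the same arrays. The probe at base 949, shown above, gave 239, 260 and 202. All 3 probes were lowest on the ETEC array. Their log2 differences averaged 0.30 ± 0.056 for TL2937+ETEC against ETEC and 0.36 ± 0.0071 for TL2766+ETEC against ETEC (SD over 3 probes). The overlapping pair are near copies, so the probes give fewer than 3 independent readings.

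CYP51A1, named CYP51 on the array, is lanosterol demethylase, the first enzyme to act on lanosterol. Its brightest probe, at base 2230, gave 7879 (TL2937+ETEC), 7516 (TL2766+ETEC) and 6724 (ETEC). The probe at base 667 gave 1765, 1680 and 1532. Each of the 4 probes was highest on the TL2937+ETEC array and lowest on the ETEC array. Their log2 differences averaged 0.22 ± 0.022 for TL2937+ETEC against ETEC, with a range of 0.20 to 0.25, and 0.18 ± 0.041 for TL2766+ETEC against ETEC, with a range of 0.13 to 0.23 (SD over 4 probes). By its brightest probe the gene was 1.17-fold and 1.12-fold higher, short of 1.2-fold.

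FDPS makes farnesyl diphosphate, the branch point between sterols and the lipid anchors of proteins. The probe at base 891 gave 5731 (TL2937+ETEC), 5740 (TL2766+ETEC) and 5201 (ETEC). All 3 probes were lowest on the ETEC array, but the differences were small, with means of 0.15 ± 0.034 for TL2937+ETEC against ETEC and 0.13 ± 0.052 for TL2766+ETEC against ETEC (SD over 3 probes). FDPS was 1.10-fold higher in both comparisons by its brightest probe, and 16.6% and 19.4% of all genes had a difference as high. With normexp background correction the log2 difference of FDPS for TL2766+ETEC against ETEC was 0.23 in place of 0.14.

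**Figure D1:**
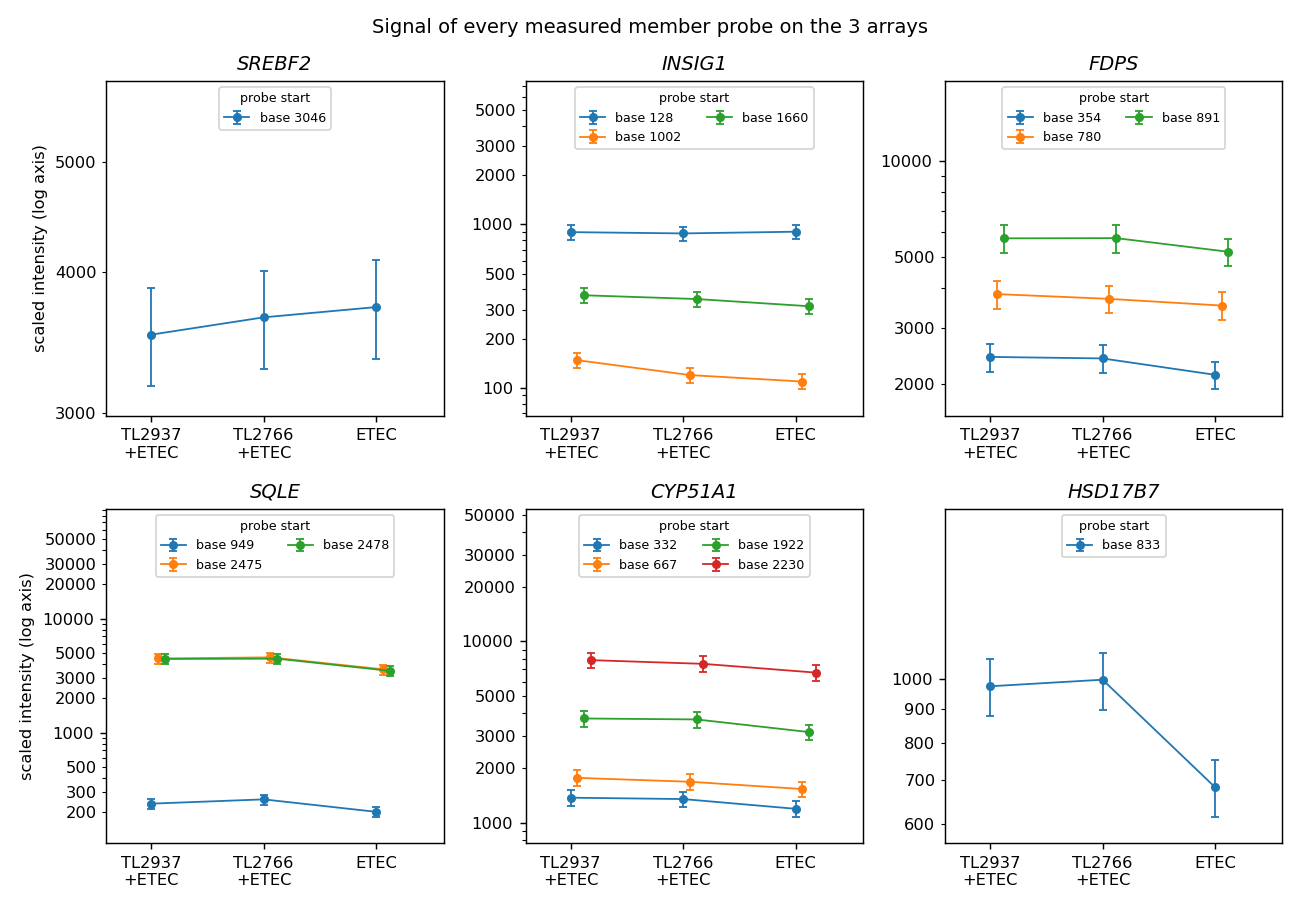
Scaled intensity (vertical log axis) of the 15 measured probes on the TL2937+ETEC, TL2766+ETEC and ETEC arrays (1 array each), in a panel per gene, with 1 line per probe and bars for the scanner software's error of a spot. The HSD17B7 probe stands at 975 and 998 on the lactobacillus arrays and 684 on the ETEC array, while SREBF2 stays within its error bars.

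The regulators had differences nearer 0 by their brightest probes. SREBF2, which encodes SREBP-2, had 1 probe, at base 3046, with 3519 ± 352 (TL2937+ETEC), 3645 ± 365 (TL2766+ETEC) and 3722 ± 372 (ETEC). These values overlapped within their errors, with log2 differences of -0.081 for TL2937+ETEC against ETEC and -0.030 for TL2766+ETEC against ETEC. SREBP-2 is controlled mainly by cleavage of its protein, which an RNA array does not measure.

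INSIG1 encodes the protein that holds SREBP-2 and its escort SCAP in the endoplasmic reticulum, and it is itself a target gene of SREBP. Its probes disagreed. The brightest, at base 128 and shown above, gave 896 (TL2937+ETEC), 879 (TL2766+ETEC) and 901 (ETEC), with log2 differences of -0.0085 and -0.035 from ETEC. The probe at base 1660 was designed for another INSIG1 transcript than the brightest probe. This second probe gave 368, 349 and 315 on the same arrays, with differences of 0.22 and 0.15. A probe at base 1002 of a sequence cluster described only by its similarity to bovine INSIG1 gave 147, 120 and 109, with differences of 0.43 and 0.13. The mean over the 3 probes was 0.22 ± 0.22 for TL2937+ETEC against ETEC and 0.081 ± 0.10 for TL2766+ETEC against ETEC (SD over probes), so the difference of INSIG1 depended on the probe. The sign of its brightest probe for TL2937+ETEC against ETEC also turned with the scaling, to 0.0079 with quantile and 0.0055 with spike-in scaling.

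Taken by probe, 13 of 15 member probes had a difference above 0 for TL2937+ETEC against ETEC, where 47.3% of all measured probes did, and 13 of 15 for TL2766+ETEC against ETEC, where 51.2% did. In both comparisons the exceptions were the SREBF2 probe and the INSIG1 probe at base 128. At least 1.2-fold higher were 4 of the 15 probes in each comparison, where 12.4% and 9.87% of all measured probes were. Probes of a gene share their target and are not replicates of a culture. The software error of a single log2 difference, which rests largely on the 10% setting, was between 0.20 and 0.21 for each member probe. The difference was larger than this error for 9 of 15 probes for TL2937+ETEC against ETEC and for 5 of 15 for TL2766+ETEC against ETEC. The share of all measured probes past their own error is not given, so these counts have no background beside them. The array carries 27 probes at 5 spots, whose log2 differences had a median standard deviation of 0.12 for TL2937+ETEC against ETEC and 0.082 for TL2766+ETEC against ETEC. The highest standard deviations among them were 0.447 and 0.698, so single spots can vary by more than the software error, and in the second comparison by more than the HSD17B7 difference of 0.55. Around the 15 member spots, the median difference of neighbouring spots lay between -0.068 and 0.052 and between -0.068 and 0.054 in these comparisons.

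**Figure D2:**
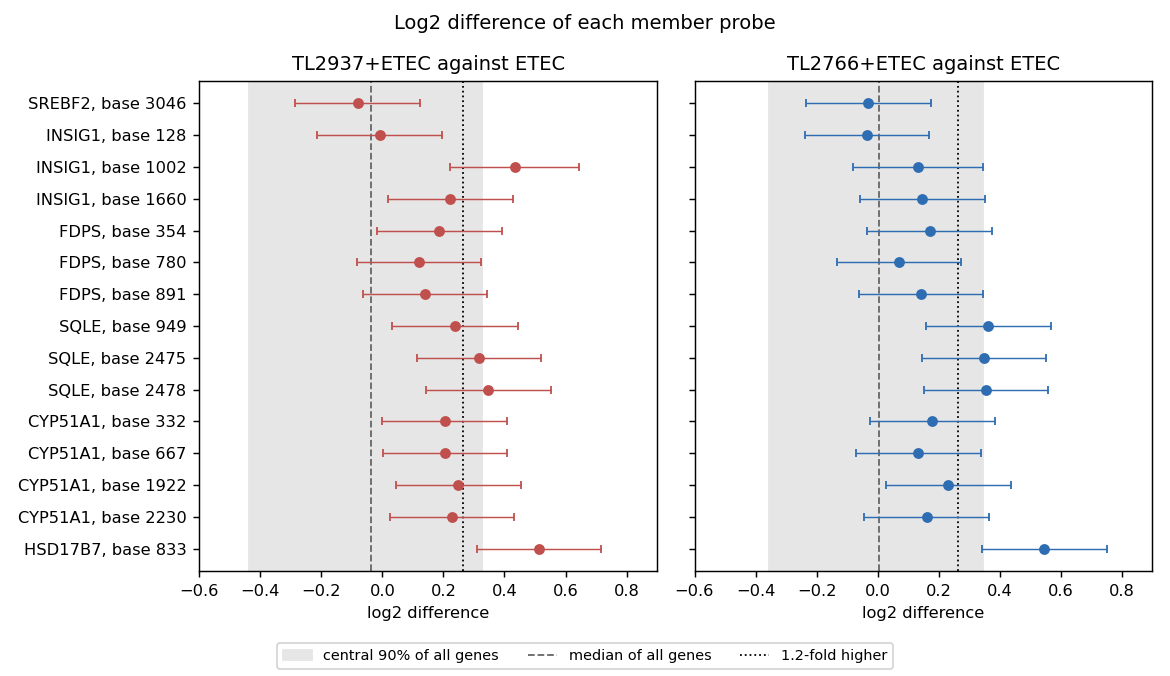
Log2 difference (horizontal axis) of each of the 15 measured member probes for TL2937+ETEC against ETEC (left) and TL2766+ETEC against ETEC (right), with bars for the combined software error of both spots, the central 90% of all genes in grey, their median dashed and 1.2-fold higher dotted. Probes of FDPS, SQLE, CYP51A1 and HSD17B7 all lie right of 0. HSD17B7 (0.51 and 0.55) and the SQLE probe at base 2478 lie outside the grey band in both panels. So do the INSIG1 probe at base 1002 on the left and the other SQLE probes on the right. The band is taken from the brightest probe of each gene.

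**Figure D3:**
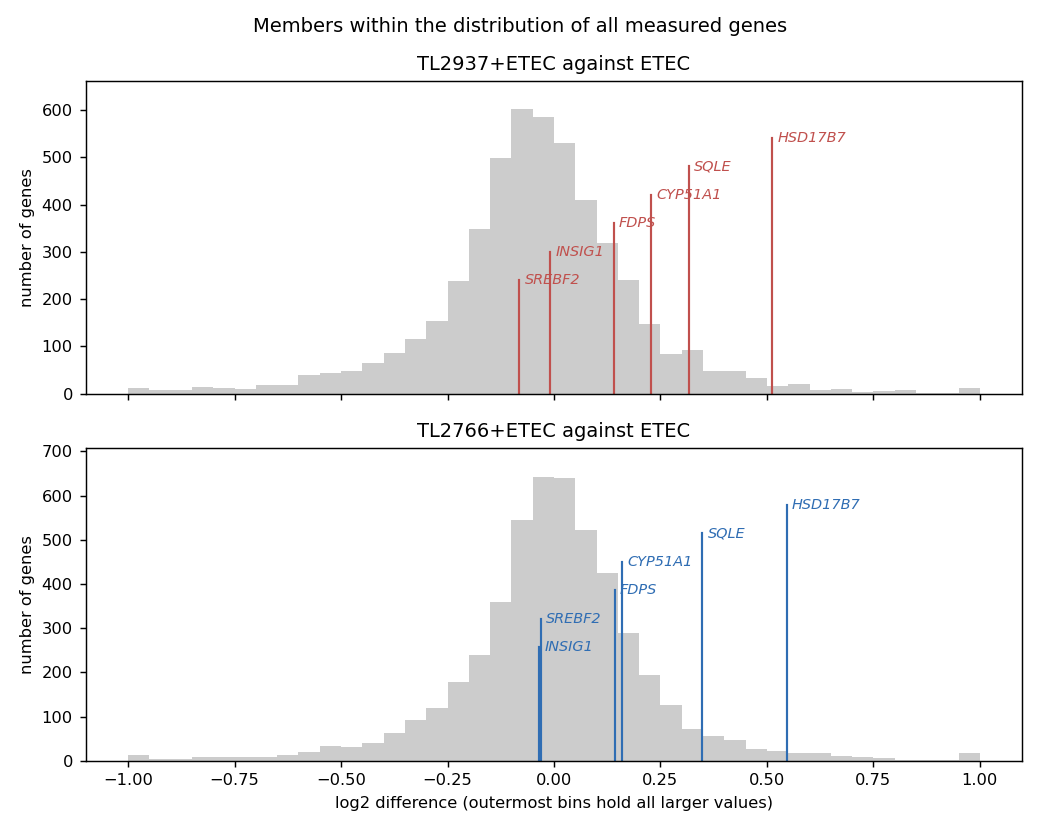
Number of genes (vertical axis) in bins of 0.05 log2 units (horizontal axis) for TL2937+ETEC against ETEC (top, 4963 genes) and TL2766+ETEC against ETEC (bottom, 4938 genes), with a line at each of the 6 measured members (line heights only separate the labels). SREBF2 and INSIG1 lie in the middle of the distribution, and SQLE and HSD17B7 in its upper tail.

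The direct comparison of TL2937+ETEC with TL2766+ETEC asked whether the strains differed. Here 0 of 6 members were 1.2-fold higher, where 4.24% of all genes were, and 0 were 1.2-fold lower, where 7.21% were. At 1.5-fold and 2-fold higher the counts were also 0, against 0.362% and 0.0804% of all genes. Above 0 were 2 of 6 members, where 34.8% of all genes were. The median log2 difference was -0.017, beside -0.042 over 4978 genes. The members ranged from -0.051 (SREBF2) to 0.068 (CYP51A1), less than the median standard deviation of 0.095 over repeated spots. HSD17B7 differed by -0.033 and SQLE by -0.033. Of 15 probes 9 were above 0, where 44.3% of all measured probes were. The INSIG1 probe at base 1002, at 0.30, was the 1 probe at least 1.2-fold higher, where 9.06% of all measured probes were. Without replicate cultures these values do not show that the strains act alike.

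The other measured enzymes of the pathway had a median of a similar size in each comparison. This list, like the members, was chosen with earlier results of these data known. Of 15 other cholesterol synthesis enzymes, 7 had a probe and all 7 were measured, among them ACAT2, MVK, PMVK, MSMO1, NSDHL and SC5D. Their median log2 difference was 0.18 for TL2937+ETEC against ETEC, with 6 of 7 above 0, where 41.1% of all genes were. Of the 7, 1 was at least 1.2-fold higher, where 7.39% of all genes were. The median was 0.14 for TL2766+ETEC against ETEC, with 5 of 7 above 0, where 50.7% of all genes were. Here 0 of 7 were at least 1.2-fold higher, where 8.12% of all genes were. ACAT2, which makes acetoacetyl-CoA for the pathway, had 627 (TL2937+ETEC), 588 (TL2766+ETEC) and 516 (ETEC), with log2 differences of 0.28 and 0.19 from ETEC. MSMO1, a sterol methyl oxidase that acts after CYP51A1, had 1256, 1278 and 1068 on these arrays, with differences of 0.23 and 0.26. MVK, mevalonate kinase, had 2126, 2073 and 1863, with differences of 0.19 and 0.15. NSDHL, a sterol dehydrogenase of the same step series, differed by 0.18 and 0.096 by its brightest probe, while its 5 probes spread from 0.025 to 0.18 for TL2937+ETEC against ETEC and from -0.21 to 0.16 for TL2766+ETEC against ETEC. PMVK, phosphomevalonate kinase, differed by -0.059 and -0.015. SC5D, a late desaturase, was dim at 111, 84.1 and 99.9, and its differences of 0.15 and -0.25 had opposite signs.

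Genes of sterol sensing had medians nearer that of all genes. Of 8 listed besides the members, 6 were measured, with medians of -0.050 for TL2937+ETEC against ETEC and -0.039 for TL2766+ETEC against ETEC. None differed by 1.2-fold in either, where 7.39% and 8.12% of all genes were higher by this fold and 12.3% and 8.79% lower. SCAP, which escorts SREBP to the Golgi, had 9324 (TL2937+ETEC), 9387 (TL2766+ETEC) and 9627 (ETEC). SREBF1, the sister gene of SREBF2, had 2826, 2966 and 2933. INSIG2, the relative of INSIG1, differed by 0.19 and -0.041 at a dim 94.5, 80.7 and 83.0. MBTPS1, the protease that makes the first cut in SREBP, differed by -0.16 and -0.079. RNF139, a ubiquitin ligase of the endoplasmic reticulum, differed by 0.049 and 0.11 by its brightest probe. Its 4 probes spread from -0.11 to 0.049 and from -0.067 to 0.11, so the sign depended on the probe.

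Among 10 genes of sterol uptake and trafficking, 8 were measured, with medians of -0.092 for TL2937+ETEC against ETEC and -0.072 for TL2766+ETEC against ETEC. NPC1, which exports cholesterol from lysosomes, was the 1 gene of the list at least 1.2-fold higher in each comparison, where 7.39% and 8.12% of all genes were. It had 1458 (TL2937+ETEC), 1370 (TL2766+ETEC) and 1071 (ETEC), with log2 differences of 0.44 and 0.36. LIPA, the lysosomal lipase that frees cholesterol from its esters, had 3736 (TL2937+ETEC), 3738 (TL2766+ETEC) and 4454 (ETEC) by its brightest probe. The differences were -0.25 and -0.25, while its 4 probes spread from -0.25 to -0.16 and from -0.25 to 0.0055 in these comparisons.

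Of 11 genes of sterol efflux and esterification, 4 were measured, with medians of 0.0061 for TL2937+ETEC against ETEC and 0.15 for TL2766+ETEC against ETEC. None differed by 1.2-fold in either, where 7.39% and 8.12% of all genes were higher by this fold and 12.3% and 8.79% lower. SOAT1, which esterifies cholesterol for storage, differed by 0.052 and 0.21 by its brightest probe, and its 10 probes spread from -0.12 to 0.21 in the second comparison. The oxysterol receptor genes NR1H2 and NR1H3 differed by -0.039 and 0.11 (NR1H2) and by 0.11 and 0.0087 (NR1H3). The values of NR1H3 are those of its brightest probe, and its 3 probes spread from 0.060 to 0.41 and from 0.0087 to 0.29. CH25H, cholesterol 25-hydroxylase, differed by -0.20 and 0.19. Fatty acid genes that SREBP-1 is known to switch on had medians of -0.0025 and -0.024 over 7 measured of 9. FADS1, a fatty acid desaturase, was at least 1.2-fold higher in both comparisons, with differences of 0.28 and 0.31 at 179 (TL2937+ETEC), 182 (TL2766+ETEC) and 147 (ETEC). ACSS2, which makes acetyl-CoA from acetate, differed by -0.22 and -0.32, but its 3 probes spread from -0.54 to 0.16 in the second comparison. ACACA, acetyl-CoA carboxylase, differed by -0.18 and -0.23. FASN, fatty acid synthase, differed by 0.11 and 0.15 by its brightest probe, while another of its probes gave 1.02 for TL2766+ETEC against ETEC.

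**Figure D4:**
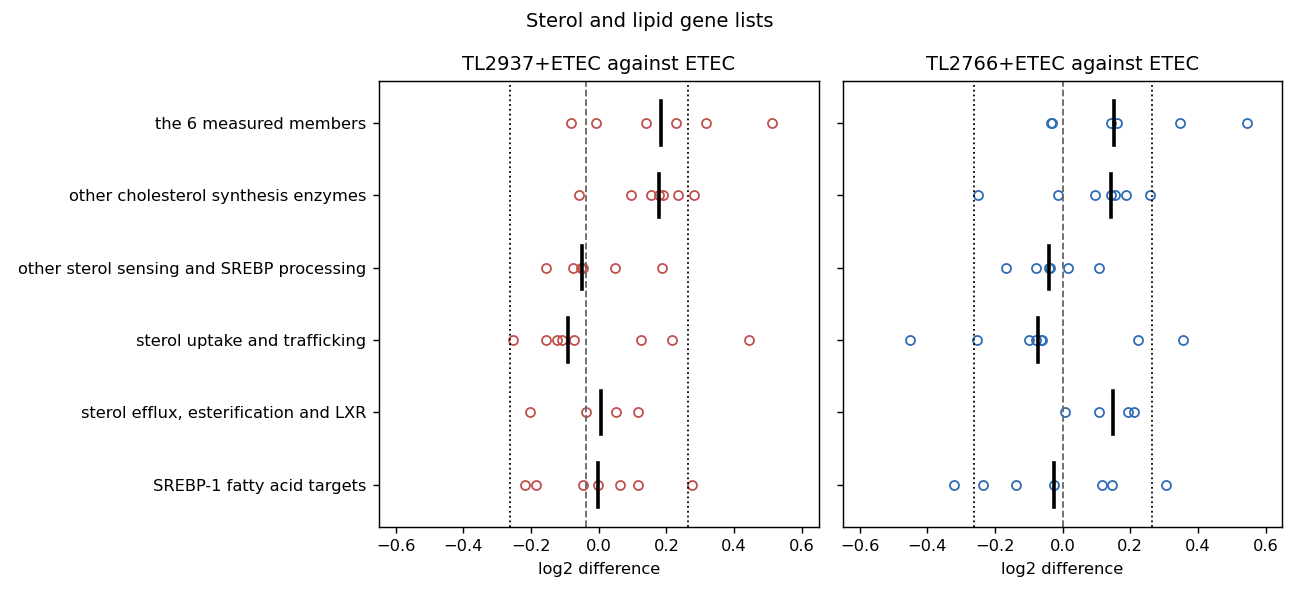
Log2 difference (horizontal axis) of each measured gene (open circles) of the members and of 5 related lists for TL2937+ETEC against ETEC (left) and TL2766+ETEC against ETEC (right), with list medians as black bars, the median of all genes dashed and 1.2-fold in either direction dotted. The members (medians 0.18 and 0.15) and the other cholesterol synthesis enzymes (0.18 and 0.14) lie right of the median of all genes in both panels, and the sterol sensing genes lie around it.

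Other genes of the HSD17B family gave mixed values. Of 11 other HSD17B genes, 3 were measured. HSD17B4 differed by -0.022 for TL2937+ETEC against ETEC and 0.0059 for TL2766+ETEC against ETEC, and HSD17B8 by -0.20 and -0.18. HSD17B1, an estradiol-forming enzyme, differed by 0.67 and 1.71 but was dim, at 39.1 (TL2937+ETEC), 80.3 (TL2766+ETEC) and 24.6 (ETEC).

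The likeness of other genes to the members was measured as the distance between their pair of log2 differences from ETEC and the members' median pair, over 3 arrays. The 5 nearest of 4904 genes were ANKZF1, LSM8, SDR39U1, DCAF4 and DUS4L, at distances of 0.0013 to 0.0063. Within a distance of 0.05 lay 121 genes, and within 0.1 lay 425, so many genes had differences of this size over 3 arrays.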

How the data were processed

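Per the labels' protocols, 200 ng of total RNA from 1 culture per group was labelled with Cy3 and hybridised to a 1-colour Agilent porcine array. All 3 arrays shared 1 slide. Each group had its own position on it, and group and position cannot be told apart. No block for the slide applies. The deposited processed intensity comes from Agilent Feature Extraction 10.7.3.1 with spatial and multiplicative detrending and surrogate values switched on, per the file headers. They record no scaling from one array to another. The authors' value table holds the same intensity, rounded (largest difference 0.496%), on a linear, uncentred scale with column medians of 37.7, 35.7 and 34.1 (TL2937+ETEC, TL2766+ETEC and ETEC).

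Control spots and 4 to 9 outlier spots of each array were dropped; the scanner marked 0 spots as saturated. Repeated spots were averaged per probe on the log2 scale, and each array's 75th percentile was subtracted. The probe with the highest mean stood for its gene. Probes were named from the array (9672, and 248 by names outside RefSeq), through accessions (3904) or synonyms (75) of a RefSeq table of Sscrofa11.1, or by description (1), while 29696 had no name and 7 had several. A difference was used where the scanner flagged the probe as well above background on both arrays. With 1 array per group no test was run, and the number of arrays limits the precision. Members and lists were chosen with earlier results of these data known. Named were all members, up to 4 measured genes of each list with the largest difference from ETEC, and SREBF1 and SCAP among genes set by name; others were named after their values were seen. Some genes that this rule names are not reported here, though list counts and medians include them. Alternatives were normexp background correction (offset 50), quantile, median and spike-in scaling, the authors' table, the mean of all probes, other background filters, outlier spots kept and other folds. The steps were tested on simulated data. Promoter motifs, though planned, were not searched, as no promoter sequences were used here. The work used Python 3.11.15 with numpy 2.4.6, pandas 2.3.3, matplotlib 3.10.9, R 4.3.3 and limma 3.58.1.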

Additional observations from a re-analysis of the deposited data

Results flagged for a closer look

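For 2 of the genes reported from the related lists, the differences from ETEC had opposite signs on the lactobacillus arrays, each larger than the median standard deviation over repeated spots; with 1 array per group the difference between strains was not tested. SC5D differed by 0.15 for TL2937+ETEC against ETEC and -0.25 for TL2766+ETEC against ETEC. CH25H, cholesterol 25-hydroxylase, differed by -0.20 and 0.19, at intensities of 72.2 (TL2937+ETEC), 95.1 (TL2766+ETEC) and 83.2 (ETEC). Each had 1 probe and a dim signal. None of the 6 measured members met this condition.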

How the results depend on the processing

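Over 9 alternatives of processing, the members' median log2 difference lay between 0.14 and 0.23 for TL2937+ETEC against ETEC and between 0.12 and 0.20 for TL2766+ETEC against ETEC, and 2 or 3 members were at least 1.2-fold higher. With folds of 1.5 and 2 in place of 1.2 these counts were 0 in both comparisons. The median of -0.017 for TL2937+ETEC against TL2766+ETEC changed sign to 0.035 with quantile scaling and 0.025 with spike-in scaling; the cause was not tested. HSD17B7 ranged from 0.41 to 0.53 and from 0.47 to 0.55 against ETEC. FDPS for TL2766+ETEC against ETEC moved to 0.23 with normexp, in place of 0.14; the cause was not tested. With the mean of all probes INSIG1 differed by 0.22 and 0.081 from ETEC, in place of -0.0085 and -0.035, since its probes disagree. The other cholesterol synthesis enzymes had medians from 0.15 to 0.19 and from 0.082 to 0.15. With normexp 3.07% and 3.83% of all genes were at least 1.2-fold higher, in place of 7.39% and 8.12%. No scaling moved the median of all genes by over 0.1. No paired analysis was possible because each group has 1 array, and for the same reason no replicate could be left out. Signal near the lowest detected intensity limits the dim probes.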

Other observations

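Some further probes were described on the array only by similarity to pathway enzymes of other species or to partial pig sequences, and were looked up after the other values were seen. A cluster like primate IDI1, the isopentenyl diphosphate isomerase, had 150 (TL2937+ETEC), 125 (TL2766+ETEC) and 132 (ETEC), with log2 differences of 0.18 and -0.082 from ETEC. Clusters like bovine and mouse DHCR7, the reductase of dehydrocholesterol, differed by 0.0045 and 0.045 (bovine) and by 0.034 and -0.021 (mouse) from ETEC. Clusters like mevalonate kinase and phosphomevalonate kinase were dim, at intensities of 13.9 to 27.5. The first differed by -0.16 and -0.43 from ETEC, opposite in sign to the 0.19 and 0.15 of the probe named MVK. The second differed by 0.23 and 0.048, opposite in sign to the -0.059 and -0.015 of the probe named PMVK.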
